A study of Mus musculus with 4 samples.

Results

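Malat1, Neat1, Meg3, Rian, Mirg, Snhg11, Snhg14, Miat and Kcnq1ot1 are long noncoding RNA genes whose transcripts are kept largely in the nucleus. Some of them are prominent in single-nucleus libraries. The 9 genes were chosen by name, and all of them are among the 31899 genes that the gene lists of all 4 libraries share. They were followed in nuclei of the basal forebrain, from the posterior substantia innominata of wild-type mice aged 8 weeks, in 2 libraries from males (male 1 and male 2) and 2 from females (female 1 and female 2). The females are the control of the study, which asked how neurons of this region differ between the sexes. The tissue was microdissected and single nuclei were counted by unique molecular identifiers (UMIs) with 10x Genomics 3' chemistry. The labels name both the v2 and the v3 kit, and they do not state whether the libraries of 1 sex are different mice. The p-values hence cover the spread between libraries and nothing more.

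Long noncoding RNAs of this kind do not encode proteins in their main role. Malat1 is held in nuclear speckles, bodies rich in splicing factors, and Neat1 is the scaffold RNA around which paraspeckles form. Meg3, Rian and Mirg are expressed from the maternal copy of the imprinted Dlk1-Dio3 domain. Snhg14 is read from the paternal copy of the Prader-Willi and Angelman domain and runs antisense to Ube3a, and Kcnq1ot1 is read from the paternal copy of the Kcnq1 domain, where it silences neighbouring genes. Snhg11 is a small nucleolar RNA host gene, and Miat is a neural transcript that binds splicing factors.

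The droplet method primes on runs of A, so the 3' ends of the transcripts bear on what is counted, and the last 30 bases of the longest annotated transcript of each gene are shown here. They were read from the GENCODE vM21 transcripts (build GRCm38), 5' to 3', with the polyadenylation hexamers AATAAA and ATTAAA in capitals, and in Neat1 with the A-rich stretch that it shares with Malat1 in capitals.
Malat1: ttttatgaAATAAAaactaaatatctctca
Neat1: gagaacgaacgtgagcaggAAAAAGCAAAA
Meg3: gctttcAATAAAtttcttgttttaactaaa
Rian: atacttatatgagtgaaaaAATAAAaaaaa
Mirg: gaatAATAAAcatatgtcatataatgtaaa
Snhg11: gaaccacaaAATAAAcactgtcttccttaa
Snhg14: gttctttctaAATAAAcattacatacaatg
Miat: atttcaatATTAAAaccgacacacactgga
Kcnq1ot1: taatAATAAAgacATTAAAatccacaaaac
A hexamer stood in this window of the longest transcript in 8 of the 9 genes, the exception being Neat1, and in that of 33.7% of the 55419 annotated genes. Over all annotated transcripts of the 9 genes it stood in 26 of 78 (33.3%), beside 29.6% of the 141722 transcripts of all genes, and the transcripts that held one included 1 of the 4 of Neat1. The long Neat1 transcript, of 20771 bases, ended in a stretch of 11 bases that Malat1 also carried, 292 bases before its own annotated end. In Malat1 the stretch followed a longer run of A.
Malat1, bases 6652 to 6711, with the run of 12 A and the rest of the shared stretch in capitals: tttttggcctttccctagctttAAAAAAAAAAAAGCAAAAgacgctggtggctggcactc
Among all annotated transcripts, 0.0275% held 5 or more A followed by GCAAAA in their last 30 bases. In both RNAs this A-rich tract is known to fold back into a triple helix that protects the end made by RNase P, so the processed transcripts carry no poly(A) tail of the usual kind. Transcript lengths ran from 3822 bases for Mirg to 93092 bases for Kcnq1ot1. Runs of 10 or more A, at which an oligo(dT) primer can start inside a transcript, numbered 10 in Kcnq1ot1, 6 in Meg3, 1 each in Malat1, Rian and Snhg14, and 0 in Neat1, Mirg, Snhg11 and Miat.

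On build GRCm38, Malat1 (chr19:5795690-5802672, minus strand) and Neat1 (chr19:5824708-5845478, minus strand) are neighbours. Meg3 (chr12:109541001-109571726), Rian (chr12:109603940-109661716) and Mirg (chr12:109729764-109749460) follow each other on the plus strand. Snhg14 (chr7:59307924-59975759) and Kcnq1ot1 (chr7:143203458-143296549) lie far apart on the minus strand of the same chromosome. Snhg11 (chr2:158375638-158386145, plus strand) is annotated as protein coding in GENCODE vM21, and Miat (chr5:112213228-112229395) lies on the minus strand.

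Promoters of RefSeq (build GRCm38.p6, 250 bases before to 50 after the start) were found for 8 of the 9 genes. They were searched on both strands for the cyclic AMP response element TGACGTCA and for TATAAA, and only a promoter of Meg3 held either.
Meg3 promoter, chr12:109540746-109541045, plus strand, with TGACGTCA and with the overlapping matches to TATAAA on both strands in capitals: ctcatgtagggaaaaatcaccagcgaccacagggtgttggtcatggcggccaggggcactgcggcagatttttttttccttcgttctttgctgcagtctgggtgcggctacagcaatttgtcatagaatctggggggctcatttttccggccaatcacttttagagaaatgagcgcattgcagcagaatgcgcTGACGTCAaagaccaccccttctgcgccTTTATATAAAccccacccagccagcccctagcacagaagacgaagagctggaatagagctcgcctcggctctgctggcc
Meg3 was the most abundant of the genes higher in neurons, and this promoter of it is shown because it held TGACGTCA. A further Meg3 promoter (chr12:109545148-109545447) held neither sequence. TGACGTCA was present in 1.79% and TATAAA in 13.6% of the 32851 promoters in the table, and a match is a description of these letters only.

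Nuclei with 500 to 8000 genes and a mitochondrial share under 5% were kept, and a nucleus joined a class when a pair of marker genes held 2 or more UMIs. Cholinergic nuclei (Chat and Slc5a7) were set first, then GABAergic (Gad1 and Gad2), glutamatergic (Slc17a6 and Slc17a7), astrocyte (Gja1 and Aqp4), oligodendrocyte (Mog and Mag), oligodendrocyte precursor (Pdgfra and Cspg4) and microglial nuclei (Inpp5d and Csf1r). Nuclei that met more than 1 class were dropped. In the order male 1, male 2, female 1 and female 2, which is kept for every list of 4 values, 5934, 5753, 5132 and 5107 nuclei were classed. Of these, 4364, 4295, 3367 and 2972 were neurons and 1570, 1458, 1765 and 2135 were glia.

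The libraries stood apart by sex in ways other than sex. The male libraries held 158132452 and 144035342 UMIs in all, against 53098268 and 53679351 in the female libraries, and the male gene lists held 33696 genes each, against 55357 in female 1 and 32285 in female 2. Of the nuclei that passed, 67.2% and 67.1% were classed in males, against 47.2% and 48.3% in females. Male 1 and male 2 shared 23 cell barcodes, female 1 and female 2 shared 35, and no barcode was shared between the sexes. Xist, the RNA of the inactive X chromosome, stood at 0.0313 and 0.0326 CPM (UMIs of the gene scaled to a fixed library total) in neurons of males and at 1233 and 1174 CPM in those of females, so every library matched its label.

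Malat1 was the most abundant RNA of all 31899 genes, in neurons as in glia, and Meg3 was the second in neurons and the sixth in glia by mean CPM over the libraries. Snhg11 ranked 8 in neurons and 16 in glia. Mirg (808 and 2479) and Miat (1141 and 3047) ranked far lower. Neat1 had the widest gap, at rank 9224 in neurons and 235 in glia. Together the 9 RNAs took 7.22%, 7.13%, 3.54% and 7.19% of the UMIs of neurons, against 11.6%, 11.3%, 5.19% and 11.6% of the UMIs of glia. Female 1 was the low library in both, and Malat1 made up most of each sum.

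**Figure D1:**
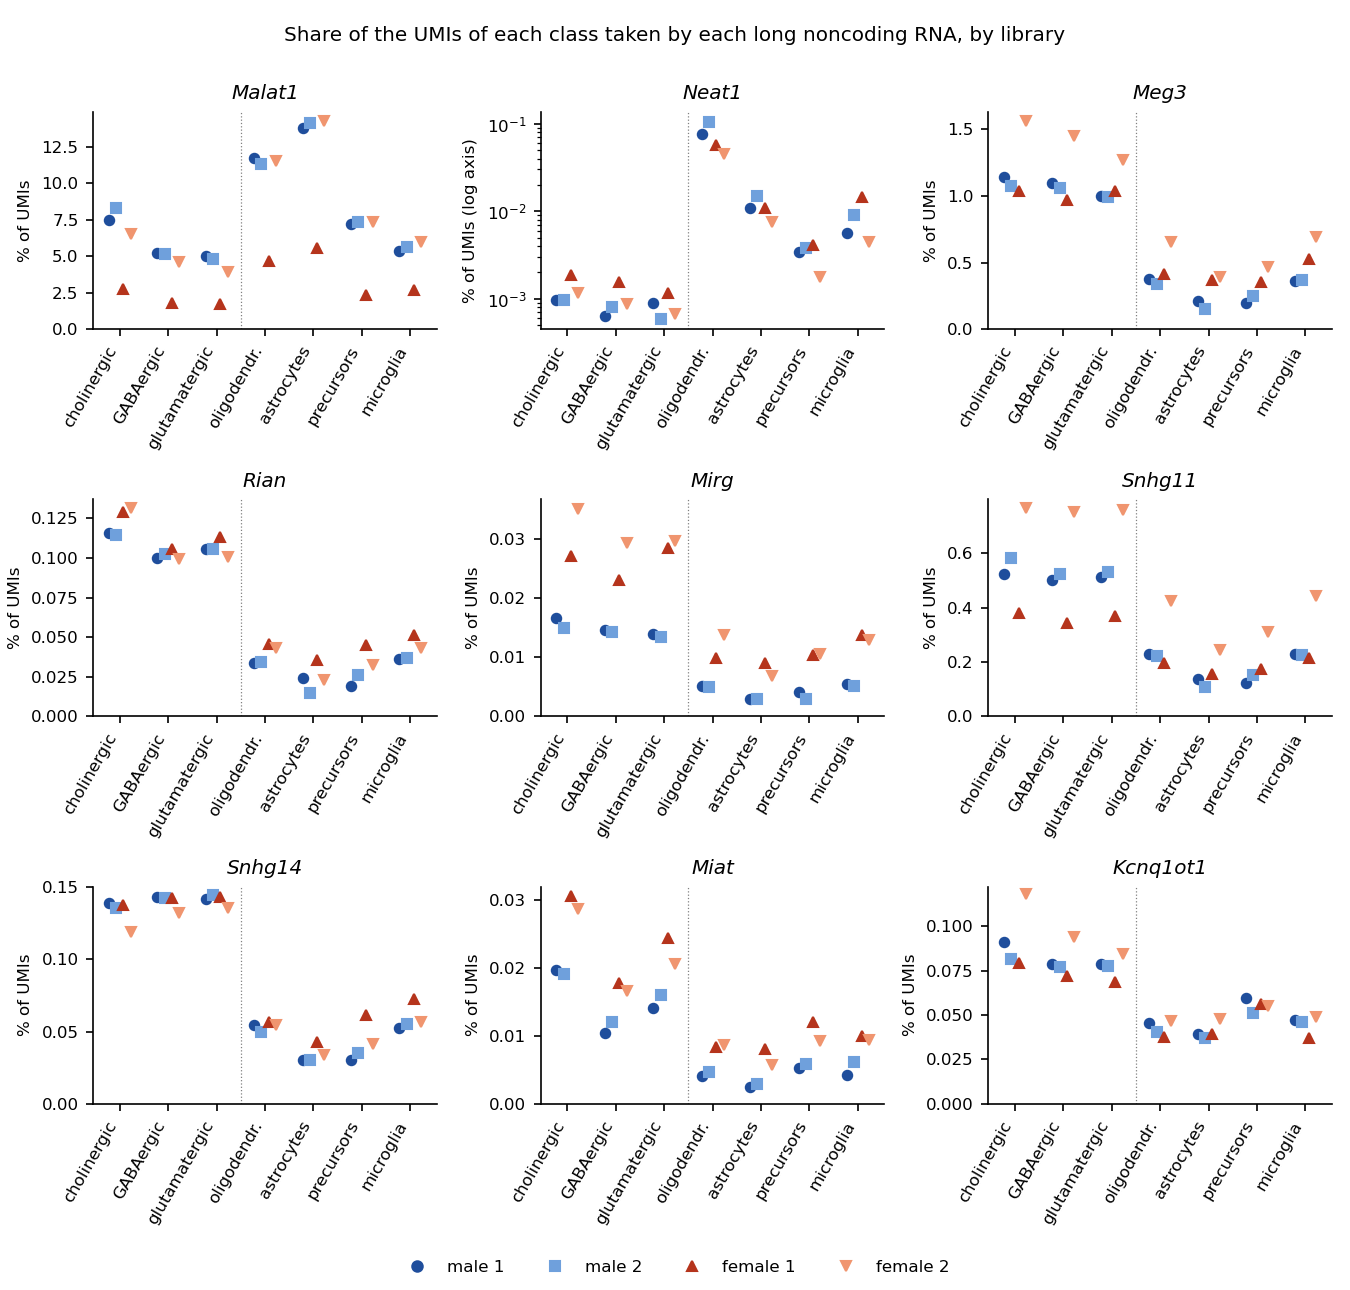
Share of UMIs (percent, on a linear axis from 0, and on a log axis for Neat1) of each of the 9 RNAs in the 7 classes, 1 panel per gene and 1 point per library, with the neuron classes left of the dotted line and the glial classes right of it. Within each library Meg3, Rian, Mirg, Snhg11, Snhg14, Miat and Kcnq1ot1 lie higher in each of the 3 neuron classes than in each glial class, and Neat1 peaks in oligodendrocytes, at 0.0454% to 0.106%.

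Neurons held a lower share of Malat1 and Neat1 than glia, and a higher share of the other 7 RNAs. The neuron to glia ratio of the shares was over 1 for those 7 in all 4 libraries and under 1 for Malat1 and Neat1 in all 4. On UMIs summed per library and compartment, with library as a term, 7 of the 9 were called higher and 2 lower in neurons (edgeR's quasi-likelihood test, Benjamini-Hochberg adjusted p under 0.05). Over all 16651 genes tested, 31.3% were called higher in neurons and 32.3% were called higher in glia, with a median log2 fold of -0.00, so a call in this comparison was common.

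Malat1 took 5.27%, 5.20%, 1.85% and 4.62% of the UMIs of neurons, against 10.9%, 10.6%, 4.39% and 10.4% of those of glia. Female 1 was low in both compartments, yet within each library the glia stood higher. The ratio of neurons to glia was 0.483, 0.492, 0.421 and 0.444, and the fitted log2 fold was -0.97 ± 0.06 (SE, n = 4 libraries, edgeR's quasi-likelihood test, adjusted p = 1.5e-06). Since neurons held more UMIs per nucleus, the mean number of Malat1 UMIs per nucleus was nevertheless 1.89, 1.97, 1.01 and 1.44 times that of glia.

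Neat1 took 0.000670%, 0.000793%, 0.00155% and 0.000871% of the UMIs of neurons, against 0.0485%, 0.0660%, 0.0404% and 0.0302% of those of glia. Every glial value lay above every neuronal one. The share in glia was 72.3, 83.2, 26.1 and 34.7 times that in neurons, with a log2 fold of -5.47 ± 0.30 for neurons over glia (SE, n = 4 libraries, edgeR's quasi-likelihood test, adjusted p = 8.83e-07). Of the glial nuclei, 1015, 954, 1204 and 1387 were oligodendrocytes, and the gap to the other glial classes was smaller. The ratio of the share in neurons to that in astrocytes was 0.0609, 0.0538, 0.141 and 0.116. For microglia it was 0.118, 0.0880, 0.105 and 0.195, and for precursors 0.198, 0.207, 0.378 and 0.496. The level of Neat1 in neurons was 0.884%, 0.751%, 2.74% and 1.92% of its level in oligodendrocytes. Mbp, the myelin basic protein gene of oligodendrocytes, stood in neurons at 1.28%, 1.26%, 2.54% and 2.04% of its oligodendrocyte level. Other oligodendrocyte markers lay on both sides of Neat1. Mobp stood in neurons at 0.471%, 0.500%, 1.54% and 1.28% and Opalin at 0.655%, 0.688%, 2.14% and 1.70% of their oligodendrocyte levels, under Neat1 in all 4 libraries. Cnp (3.54%, 3.07%, 13.1% and 6.48%) and Cldn11 (1.90%, 1.73%, 4.30% and 5.13%) stood above it in all 4. The neuronal Neat1 signal thus lay within the range of these markers, and the part of stray RNA in it was not tested.

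The 3 RNAs of the Dlk1-Dio3 domain had similar ratios. Meg3, a maternally expressed tumour suppressor RNA, took 1.09%, 1.06%, 0.976% and 1.44% of the UMIs of neurons, against 0.318%, 0.299%, 0.411% and 0.607% of those of glia. Rian, a host of box C/D small nucleolar RNAs, took 0.101%, 0.103%, 0.107% and 0.101% in neurons, against 0.0303%, 0.0300%, 0.0444% and 0.0396% in glia. Mirg, which hosts a microRNA cluster, took 0.0147%, 0.0142%, 0.0235% and 0.0296% in neurons, against 0.00466%, 0.00431%, 0.0102% and 0.0126% in glia.

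For none of the 3 did neurons and glia overlap. Meg3 was 3.44, 3.53, 2.37 and 2.38 times as high a share in neurons, with a log2 fold of 1.67 ± 0.11 (SE, adjusted p = 2.36e-06, edgeR's quasi-likelihood test). The ratios of Rian (3.34, 3.43, 2.42 and 2.54) and Mirg (3.15, 3.28, 2.31 and 2.35) were close to those of Meg3 within each library. Set against each other, there were 9.24, 9.76, 11.0 and 6.98 Rian UMIs per 100 Meg3 UMIs in neurons, against 9.53, 10.1, 10.8 and 6.53 in glia. Mirg UMIs per 100 Rian UMIs numbered 14.5, 13.7, 21.9 and 29.4 in neurons, against 15.4, 14.4, 22.9 and 31.8 in glia, so these proportions differed more between libraries than between compartments.

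Snhg11 took 0.504%, 0.526%, 0.347% and 0.753% of the UMIs of neurons, against 0.198%, 0.195%, 0.190% and 0.394% of those of glia. Female 2 was high and female 1 low among neurons, and the glia of female 2 exceeded the neurons of female 1. Within each library the neurons stood higher, by 2.55, 2.70, 1.83 and 1.91 times, and the log2 fold was 1.30 ± 0.10 (SE, adjusted p = 5.7e-06, edgeR's quasi-likelihood test).

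Snhg14 took 0.143%, 0.143%, 0.142% and 0.132% of the UMIs of neurons, against 0.0467%, 0.0448%, 0.0563% and 0.0512% of those of glia, with no overlap of the compartments. Its ratio was 3.07, 3.18, 2.53 and 2.58 and its log2 fold 1.65 ± 0.07 (SE, adjusted p = 4.37e-07, edgeR's quasi-likelihood test). Miat took 0.0109%, 0.0126%, 0.0187% and 0.0174% in neurons, against 0.00397%, 0.00472%, 0.00891% and 0.00856% in glia, and its ratio of 2.75, 2.66, 2.10 and 2.03 came with a log2 fold of 1.38 ± 0.09 (SE, adjusted p = 2.34e-06, edgeR's quasi-likelihood test). The compartments of Miat did not overlap, although female glia lay close to male neurons. Kcnq1ot1, the longest transcript, took 0.0789%, 0.0774%, 0.0724% and 0.0946% in neurons, against 0.0467%, 0.0423%, 0.0400% and 0.0483% in glia. Without overlap, its ratio was the smallest of the 7 in all libraries but female 2, where that of Snhg11 was smaller. The ratio was 1.69, 1.83, 1.81 and 1.96, and the log2 fold was 1.01 ± 0.06 (SE, adjusted p = 1.33e-06, edgeR's quasi-likelihood test).

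**Figure D2:**
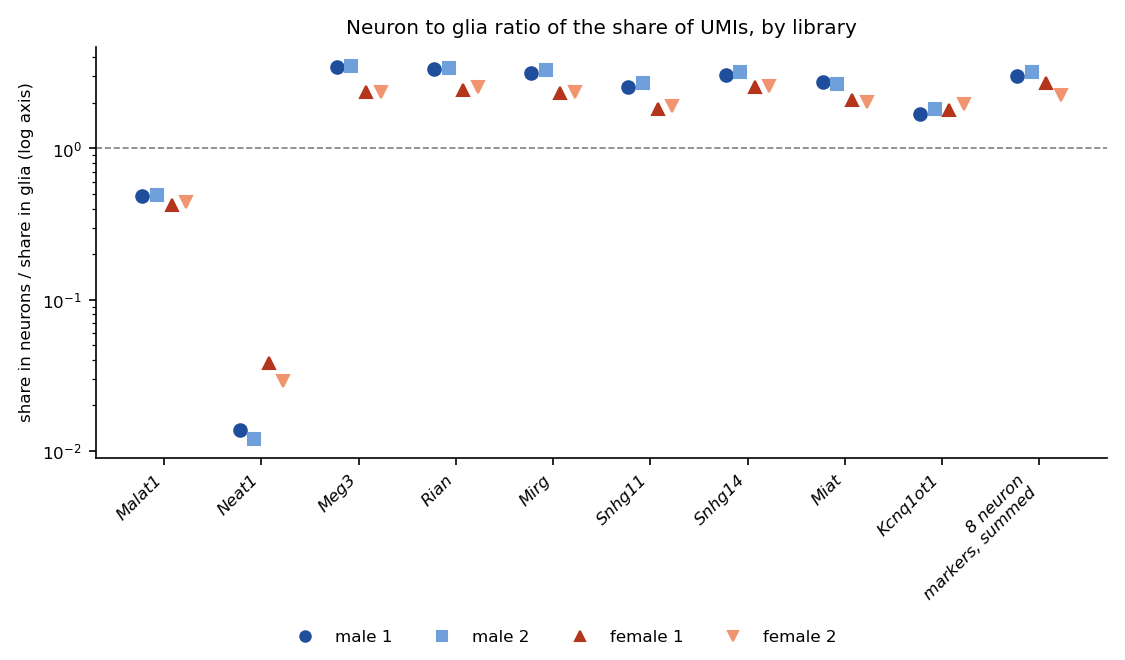
Neuron to glia ratio of the share of UMIs (log axis) for each RNA, 1 point per library, with males left of females, beside the summed ratio of 8 neuron marker genes. The line at 1 marks equal shares. Malat1 (0.421 to 0.492) and Neat1 (0.0120 to 0.0384) lie under it and the other 7 above it.

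The glia also held RNA of neuron markers. All 8 neuron markers that the class rule did not use (Snap25, Syt1, Rbfox3, Stmn2, Slc12a5, Syp, Nefl and Nefm) were detected in glia of every library, none was at 0, and their summed level was 4746, 4679, 4513 and 4300 CPM in neurons, against 1569, 1449, 1675 and 1892 CPM in glia. The ratio of these sums, 3.02, 3.23, 2.69 and 2.27, was of the size seen for Meg3 and Rian. Syt1 made up most of the sum, with 3197 CPM in neurons of male 1. The median ratio of the 8 markers was lower, at 2.17, 2.51, 2.13 and 1.67. Of the 8 markers, 1, 1, 3 and 2 had a higher ratio than Meg3, and 1, 2, 3 and 1 a higher ratio than Rian. Single markers had ratios of 1.12 to 4.44 in male 1 and of 0.951 to 2.66 in female 2, and in each library the ratios of the 7 RNAs lay inside the range of the markers. The part of stray neuron RNA in the glial signal of the 7 was not tested. In nuclei with 0 UMIs of every other class's marker pair, the summed marker ratio was 5.12, 4.91, 3.42 and 2.94 and the ratio of Meg3 was 7.05, 6.33, 2.87 and 3.27. Kcnq1ot1 stood under the summed markers there in all 4 libraries, at 1.98, 2.09, 2.06 and 2.39. The Malat1 ratio in those nuclei was 0.420, 0.440, 0.372 and 0.392.

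The fold of the 7 RNAs moved with the choice of nuclei, while its direction did not. In nuclei without another class's markers the log2 fold was 2.36 for Meg3, 2.31 for Rian, 2.18 for Mirg, 1.79 for Snhg11, 2.27 for Snhg14, 1.91 for Miat and 1.27 for Kcnq1ot1, which moved least of the 7. In nuclei of 2000 to 5000 UMIs only 82 and 80 male neurons remained, against 819 and 729 male glia. Depth was nearer there but not equal, with medians of 4025.5, 4097.5, 4010 and 3990 UMIs in GABAergic nuclei, against 2503, 2506, 2658 and 2957 in oligodendrocytes. The Meg3 ratio in this window was 11.5, 12.5, 3.27 and 2.97. Its log2 fold there was 2.61, and those of Rian, Mirg, Snhg11, Kcnq1ot1 and Neat1 were 2.28, 2.19, 2.02, 1.15 and -4.36. With the 7 classes weighted equally the Neat1 log2 fold was -3.56, and DESeq2 did not call Malat1 (log2 fold -0.96, adjusted p = 0.0806).

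**Figure D3:**
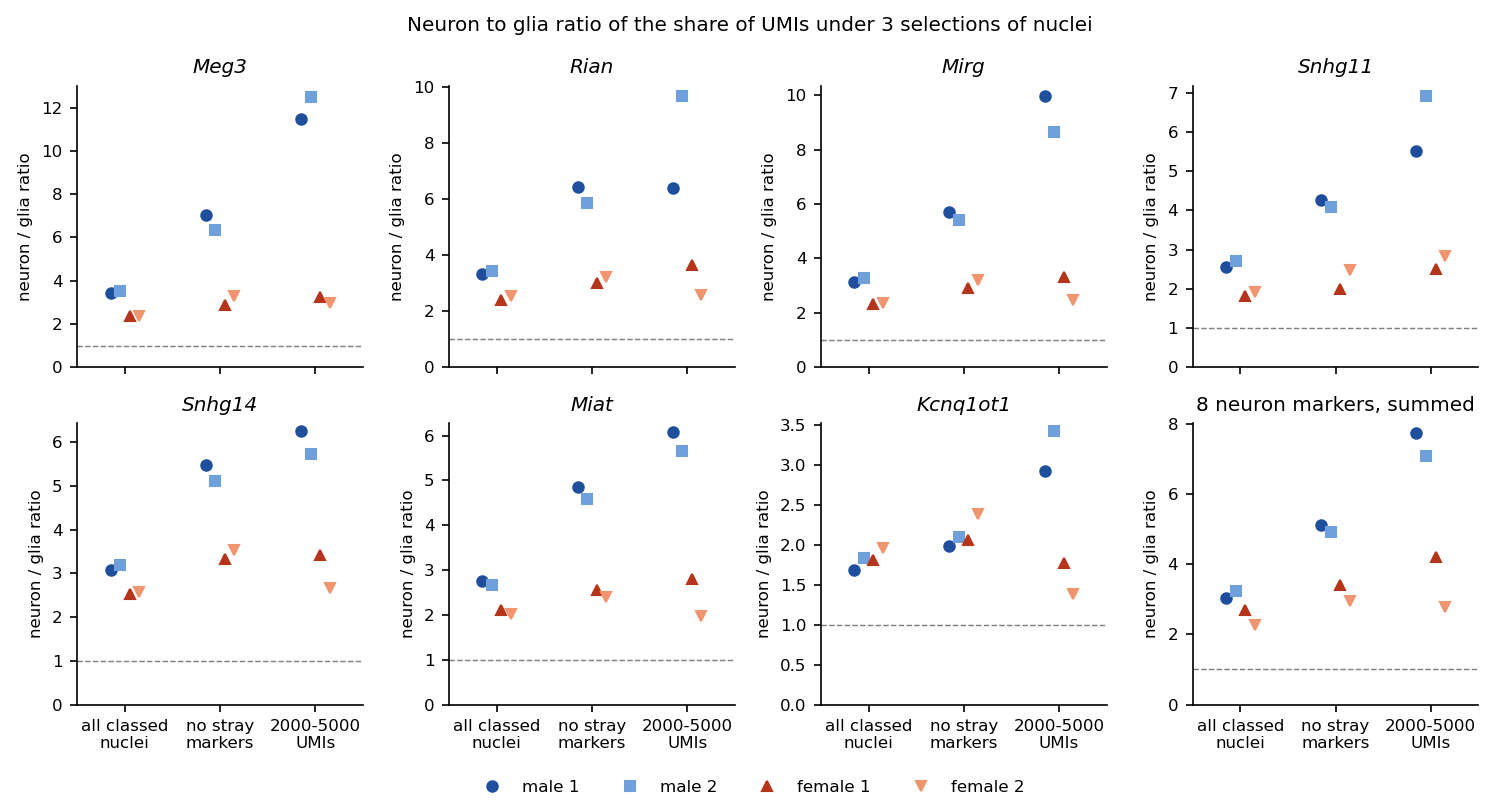
Neuron to glia ratio of the share of UMIs (linear axis from 0, dashed line at 1) per library for Meg3, Rian, Mirg, Snhg11, Snhg14, Miat, Kcnq1ot1 and the 8 summed neuron markers, in all classed nuclei, in nuclei without a UMI of another class's markers and in nuclei of 2000 to 5000 UMIs. The Meg3 ratio in male 1 is 3.44, 7.05 and 11.5 in these 3 selections, and in female 2 it is 2.38, 3.27 and 2.97.

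Among oligodendrocytes the shares moved with the depth of the nucleus. Within each library, oligodendrocyte nuclei were split by total UMIs into 5 depth bins of equal size. In the shallowest bin Meg3 took 0.0893%, 0.0943%, 0.357% and 0.359% of the UMIs, and in the deepest bin it took 0.642%, 0.611%, 0.567% and 0.977%. The summed neuron markers took 0.0752%, 0.0839%, 0.117% and 0.120% in the shallowest bin and 0.282%, 0.252%, 0.252% and 0.288% in the deepest, so both were higher in the deepest bin of every library.

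Malat1 and Neat1 ran the other way. Malat1 took 13.9%, 13.6%, 5.69% and 14.7% of the UMIs in the shallowest bin of oligodendrocytes and 9.24%, 8.47%, 3.38% and 7.84% in the deepest. Neat1 took 0.125%, 0.160%, 0.101% and 0.102% in the shallowest bin and 0.0306%, 0.0487%, 0.0253% and 0.0169% in the deepest. The part of multiplets or of free RNA in these gradients was not tested.

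The shallower bins stood apart by sex. In bins 1 to 4 of male oligodendrocytes Meg3 stayed between 0.0563% and 0.103% of UMIs, and in those of females between 0.264% and 0.368%. The median oligodendrocyte nucleus held a Meg3 share of 0.0707% and 0.0668% in males, against 0.283% and 0.290% in females, and the median astrocyte nucleus 0.0467% and 0.0565% in males, against 0.222% and 0.206% in females. Median GABAergic nuclei, at 1.08% and 1.04% in males against 0.954% and 1.41% in females, overlapped between the sexes.

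**Figure D4:**
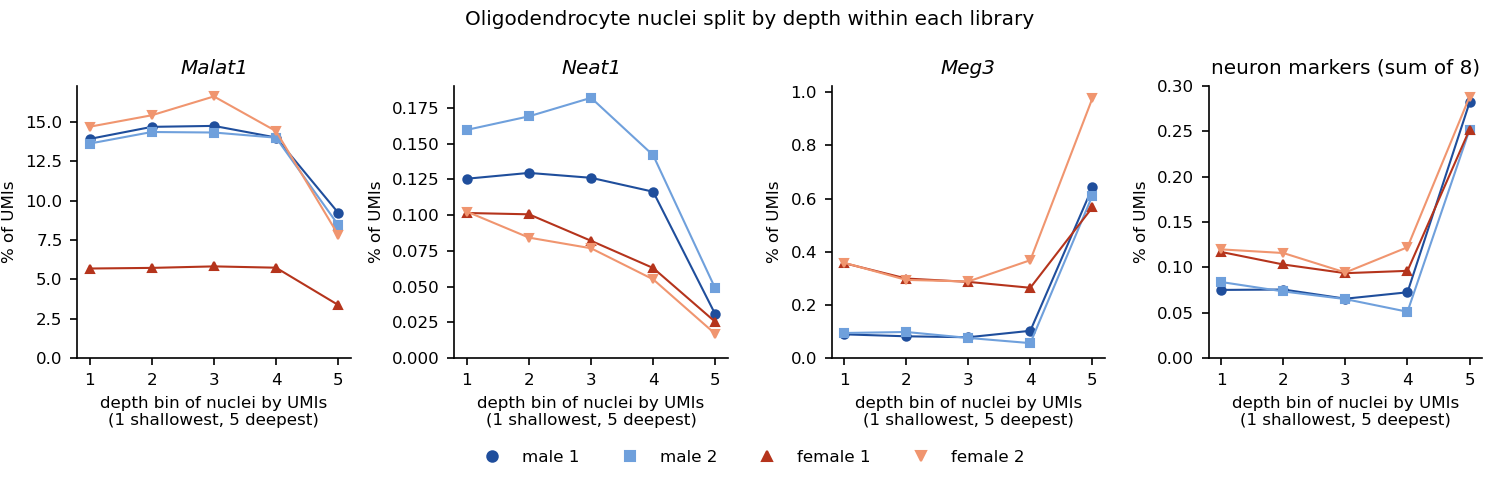
Share of UMIs (percent, linear axis from 0) of Malat1, Neat1, Meg3 and the 8 summed neuron markers in 5 equal bins of oligodendrocyte nuclei ordered by total UMIs, 1 line per library. In the deepest bin Malat1 and Neat1 lie lower and Meg3 and the markers higher than in the shallowest bin of all 4 libraries.

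Among GABAergic nuclei the shares of most of these RNAs moved little with depth in males and in female 1. In female 2 Malat1 took 6.13% in its shallowest and 3.28% in its deepest bin, Snhg11 0.977% and 0.620%, and Kcnq1ot1 0.0580% and 0.114%. In male 1 the same pairs were 5.41% and 5.12%, 0.552% and 0.481%, and 0.0738% and 0.0847%.

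Nuclei were also counted in place of UMIs. Malat1 was found in 100% of nuclei of both compartments after each nucleus was thinned to 1000 UMIs, so its detection does not separate them. At that depth Meg3 was found in 99.8%, 99.7%, 99.3% and 99.8% of neurons, against 55.5%, 55.8%, 92.0% and 90.2% of glia. Snap25, a synaptic gene that glia should lack, was found in 56.4%, 54.8%, 51.4% and 52.6% of neurons, against 14.4%, 15.1%, 23.6% and 20.2% of glia. Without thinning, Meg3 was found in 83.6%, 83.8%, 99.2% and 98.1% of glia. Shallower nuclei left out numbered 0, 0, 4 and 5 among neurons and 11, 11, 51 and 215 among glia.

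Neat1 was found in 56.2%, 64.4%, 43.2% and 36.1% of thinned oligodendrocyte nuclei, against 0.588%, 0.786%, 1.82% and 0.989% of GABAergic nuclei. Without thinning, Neat1 was found in 78.9%, 83.4%, 61.7% and 49.2% of oligodendrocytes and in 7.16%, 8.43%, 8.00% and 5.89% of GABAergic nuclei.

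Oligodendrocytes differed from astrocytes mainly by Neat1. It took 0.0758%, 0.106%, 0.0566% and 0.0454% of the UMIs of oligodendrocytes, against 0.0110%, 0.0147%, 0.0110% and 0.00751% of those of astrocytes, and the classes did not overlap. The log2 fold was 2.68 ± 0.13 (SE, n = 4 libraries, edgeR's quasi-likelihood test, adjusted p = 4.92e-10). Malat1 took 11.7%, 11.3%, 4.68% and 11.5% in oligodendrocytes, against 13.8%, 14.1%, 5.59% and 14.3% in astrocytes. Astrocytes stood higher in each of the 4 libraries, but the log2 fold of -0.27 ± 0.12 did not pass the test (adjusted p = 0.0906, edgeR's quasi-likelihood test).

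In all, 7 of the 9 RNAs were called higher in oligodendrocytes and 0 lower by edgeR (DESeq2 called 6 higher and Malat1 lower), where 21.2% of the 11957 genes tested were called higher and 18.7% lower with an all-gene median log2 fold of 0.08. Meg3 (0.75), Snhg11 (0.74), Rian (0.73), Snhg14 (0.68), Mirg (0.65) and Miat (0.47) followed Neat1. The log2 fold of Kcnq1ot1, 0.08 ± 0.11, did not pass. Summed neuron markers moved the same way, with a median over libraries of 1745 CPM (range 1581 to 2014) in oligodendrocytes and 1172 CPM (range 802 to 1421) in astrocytes. Without nuclei that held another class's markers 4 of the 9 were called higher (Neat1, Meg3, Rian and Snhg11), and in nuclei of 2000 to 5000 UMIs 2 were (Neat1 and Rian). Over all genes, 1956 of 10473 were called higher in the former selection and 1554 of 8825 in the latter. Neat1 was the steady one, at 2.98 and 2.75 in these selections.

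The order of the 7 classes can be read per gene. Malat1 was highest in astrocytes (mean share over libraries 11.95%), then oligodendrocytes (9.81%), cholinergic neurons (6.28%), precursors (6.04%), microglia (4.90%), GABAergic (4.19%) and glutamatergic neurons (3.84%). Cholinergic neurons exceeded precursors, and precursors exceeded microglia, in 3 of 4 libraries, and every other step held in all 4. Neat1 ran oligodendrocytes, astrocytes, microglia, precursors, cholinergic, GABAergic and glutamatergic neurons, with the steps from astrocytes to microglia and from GABAergic to glutamatergic neurons in 3 of 4 libraries and the others in all 4. In cholinergic nuclei it rested on 16, 17, 20 and 11 UMIs, with an exact Poisson 95% interval of 0.000548% to 0.00156% in male 1.

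Cholinergic neurons, the acetylcholine cells of the basal forebrain, led the order for Meg3, Rian, Mirg, Snhg11, Miat and Kcnq1ot1, and exceeded the next class in all 4 libraries for each of these but Mirg (3 of 4). Snhg14 was the exception, with 0.141% in glutamatergic, 0.140% in GABAergic and 0.133% in cholinergic neurons, the last step in all 4 libraries. Cholinergic nuclei were also the deepest class and had the highest summed neuron markers, at 5968 to 6234 CPM against 4235 to 4786 CPM in GABAergic nuclei. They numbered 76, 86, 136 and 78. Astrocytes came last for all 7 neuron-high RNAs. For Kcnq1ot1 their place under oligodendrocytes held in 2 of 4 libraries, and for Meg3 their place under precursors in 2 of 4.

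Between GABAergic and glutamatergic nuclei, Miat was the only member of the 9 that was called. It took 0.0104%, 0.0120%, 0.0178% and 0.0167% of the UMIs of GABAergic nuclei, against 0.0140%, 0.0160%, 0.0245% and 0.0206% of those of glutamatergic nuclei. GABAergic nuclei were lower in all 4 libraries, with a log2 fold of -0.44 ± 0.05 (SE, adjusted p = 2.49e-06, edgeR's quasi-likelihood test). Over 15504 genes tested, 7.1% were called higher and 8.07% lower in GABAergic nuclei. In cholinergic nuclei, not part of that test, the Miat share was 0.0197%, 0.0192%, 0.0306% and 0.0286%, above both other classes in each library. The log2 folds of the other 8 lay between -0.09 and 0.09.

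No member was called between males and females at the adjusted threshold. In neurons 1 of 18672 genes was called, Xist, which makes 0% of genes higher in males and 0.00536% lower. Of the 9 members 0 were called. There were 3048 genes with a p under 0.05 before adjustment, and DESeq2 called 948, among them Mirg. Mirg took 0.0147% and 0.0142% of neuronal UMIs in males, against 0.0235% and 0.0296% in females. Its log2 fold of -0.81 ± 0.11 had an adjusted p of 0.282 in edgeR's quasi-likelihood test.

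Malat1 stood at 5.27% and 5.20% of neuronal UMIs in males, against 1.85% and 4.62% in females. Female 1 lay far under the other 3 libraries, and the log2 fold was 0.79 ± 0.48, which did not pass. Miat stood lower in males (log2 fold -0.56 ± 0.14, adjusted p = 0.282) in edgeR's quasi-likelihood test. The log2 folds of Rian (0.03), Snhg11 (-0.01), Kcnq1ot1 (-0.02), Meg3 (-0.09) and Snhg14 (0.12) were small beside their standard errors of 0.13 to 0.37. The calls changed when a female library was left out, since the spread then came from the males alone. The SD of the log2 CPM difference in neurons was 0.107 between males and 0.737 between females. Calls from such a fit are hence not a result about the members.

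In astrocytes 5 of 9012 genes were called, 0.0333% higher and 0.0222% lower in males, while 788 had a p under 0.05 before adjustment and DESeq2 called 30. In oligodendrocytes 3 of 13032 were called, 0.0153% higher and 0.00767% lower in males, while 1381 had a p under 0.05 before adjustment and DESeq2 called 206. The members called numbered 0 in both, by edgeR and by DESeq2. Mirg had log2 folds of -1.43 ± 0.31 in astrocytes and -1.14 ± 0.23 in oligodendrocytes, and Meg3 -1.03 ± 0.23 in astrocytes (adjusted p = 0.273, 0.251 and 0.304, edgeR's quasi-likelihood test). Members with an unadjusted p under 0.05 were Mirg and Miat in all 3 cell groups, Meg3 and Snhg11 in astrocytes and Neat1 in oligodendrocytes. Here too the females lay further apart. The SD of the log2 CPM difference was 0.346 between males and 0.704 between females in astrocytes, and 0.277 and 0.729 in oligodendrocytes.

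The neuron to glia fold itself differed between the sexes for 3 members. A test of compartment by sex called 200 of 18122 genes, 0.116% with a larger fold in males and 0.988% with a smaller one. Neat1 had a log2 difference of -1.40 ± 0.17 (SE, adjusted p = 0.00507), Meg3 of 0.54 ± 0.10 (adjusted p = 0.0297) and Snhg11 of 0.48 ± 0.10 (adjusted p = 0.0473) in edgeR's quasi-likelihood test, males over females. The Neat1 ratio was 0.0138 and 0.0120 in males, against 0.0384 and 0.0288 in females, and the Meg3 ratio 3.44 and 3.53 in males, against 2.37 and 2.38 in females. Snhg11 had 2.55 and 2.70 in males, against 1.83 and 1.91 in females. The ratios of the sexes did not overlap in 8 of the 9 members, Kcnq1ot1 being the exception, but with 2 libraries a sex this was common, as 45.7% of 12955 genes with 10 or more UMIs in neurons and in glia of every library had ratios without overlap.

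Rian (0.44, adjusted p = 0.0742), Mirg (0.46), Miat (0.38), Snhg14 (0.28), Malat1 (0.17) and Kcnq1ot1 (-0.11) did not pass in edgeR's quasi-likelihood test. The part of stray RNA in these differences was not tested, and neuron markers in glia did not all move with sex. Snap25 was found in 14.4% and 15.1% of thinned glia of males, against 23.6% and 20.2% of those of females. Snap25, Syt1, Rbfox3 and Slc12a5 had a higher CPM in glia of both females than in those of both males. Stmn2, Syp, Nefl and Nefm were lower in glia of female 1 than in those of both males. Sex cannot be told apart here from depth, gene list and software version, all of which changed with it. The Neat1 call was lost with classes weighted equally and in nuclei of 2000 to 5000 UMIs (log2 differences of -0.92 and -0.50), the Meg3 call was lost without male 2 and with a class threshold of 3 UMIs, and the Snhg11 call was lost there and without male 1. In nuclei without another class's markers the Meg3 difference was larger, at 1.12, and 6 members were called larger in males. Calls over all genes rose there too, to 464 of 17312 genes (2.68%), 196 with a larger and 268 with a smaller fold in males.

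Gene models differed between the lists, while the identifiers of all 9 members were the same in all 4. Only the list of female 1 held microRNA and small nucleolar RNA genes, 2189 of them against 0 in each other list, and 3214 genes of the GENCODE class TEC, candidates without experimental evidence, against 3 in each male list and 0 in female 2. The small RNA genes inside Rian and Mirg took next to nothing: overlapping genes on the same strand held 19 UMIs beside the 49353 of Rian and 2 beside the 10937 of Mirg. For Malat1, low in female 1, the list of that library held no gene overlapping it on the same strand, and the 1 on the opposite strand, Gm37376, named here after its value was seen, held 5423 UMIs, equal to 0.425% of those of Malat1.

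Snhg14 was the member whose models mattered. In female 1, A230103L15Rik held 8887 UMIs within its span and on its strand, equal to 13.7% of the Snhg14 count, and Gm44831 held 4386 (6.74%). Gm38393 (chr7:59974149-60005064), which overlaps only the edge of the span and lies mostly beyond it, held 4245 (6.52%). Gm38393 was also listed in female 2, with 2535 UMIs (4.24%). With these models summed into Snhg14, its neuron to glia ratio was 2.52 in female 1 and 2.56 in female 2, beside 2.53 and 2.58 without them. The sum took in all UMIs of Gm38393, also those from outside the Snhg14 span. The log2 fold of males over females in neurons was -0.10 with the sum and 0.12 without it, and neither passed the test.

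Downstream of Snhg14 on the same strand, female 1 alone listed 9330162G02Rik (chr7:59223847-59254788), overlapping the span of Ube3a, with 64265 UMIs, equal to 98.8% of the Snhg14 count. It took 0.140% of the UMIs of neurons and 0.0557% of those of glia, a ratio of 2.52 beside 2.53 for Snhg14. Gm44560 (17177 UMIs, ratio 2.86), Gm44562 (8678, 2.76), Gm44559 (4071, 2.55) and Gm44742 (1910, 2.14) also lay downstream of Snhg14. Gm44829 (16962, 2.98) lay within the span of Snhg14 on the opposite strand. Ube3a, the ubiquitin ligase gene antisense to Snhg14, took 0.0515%, 0.0507%, 0.142% and 0.0858% of the UMIs of neurons, against 0.0331%, 0.0305%, 0.0502% and 0.0502% of those of glia. Its ratios of 1.56, 1.66, 2.83 and 1.71 were highest in female 1. The sources used here do not say whether counting used strand. Whether reads of Ube3a, Gm44829 and the transcripts antisense to them were kept apart is hence not known here.

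**Figure D5:**
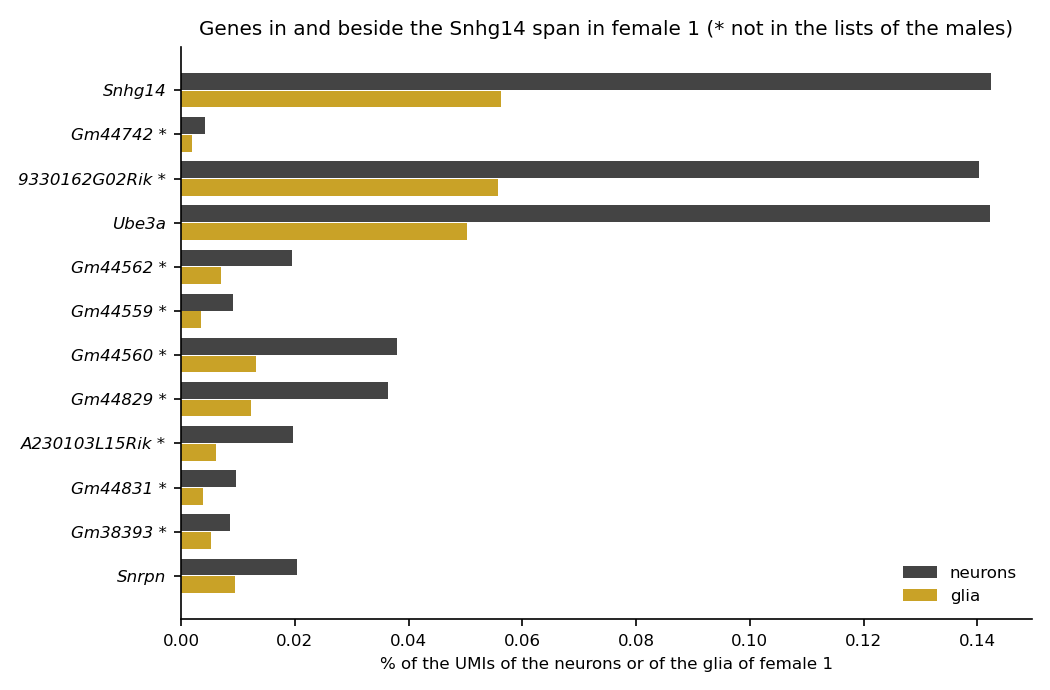
Shares of UMIs (percent) in neurons (dark bars) and glia (light bars) of female 1 for Snhg14 and for genes at its locus, on the same or the opposite strand, with an asterisk for genes not in the male lists. Snhg14 (0.142% in neurons and 0.0563% in glia) and 9330162G02Rik (0.140% and 0.0557%) lie side by side.

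In the Dlk1-Dio3 domain, Gm37899, between Rian and Mirg, was listed in female 1 alone, with 6904 UMIs and a ratio of 2.71. B830012L14Rik, a further noncoding RNA of that stretch, was listed in all 4 libraries and had ratios of 3.35, 3.38, 2.90 and 3.17, close to those of Rian.

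Likeness was measured by Pearson's r of log2 CPM, centred within each library, over the 28 sums of 7 classes in 4 libraries, among 10135 genes. These sums share library and depth, so r is a description only. Among Meg3, Rian, Mirg, Snhg11 and Snhg14 the 10 pairs had r of 0.978 to 0.994, and over all 7 neuron-high members the 21 pairs had r of 0.833 to 0.994. Malat1 and Neat1 had r = 0.746 with each other.

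Most like Meg3 were Lingo2 (r = 0.991), a neuronal leucine-rich repeat membrane protein, A230006K03Rik (0.985) and Ndrg4 (0.981). Lingo2 and A230006K03Rik were also among the 3 most like Snhg11, with Pacsin1, an endocytic adaptor, and among those most like Snhg14, with Mtus2. Clvs1 (0.991), B830012L14Rik (0.990) and Celf4 (0.984), an RNA-binding protein of neurons, were most like Rian, and Cacna1b (0.983), a presynaptic calcium channel, B830012L14Rik (0.981) and Nhs (0.977) most like Mirg. Miat ran closest to Hecw1 (0.979), Rbfox1 (0.977), a splicing factor, and Erc2 (0.977), a protein of the presynaptic active zone, and Kcnq1ot1 to Gpr158 (0.961), Cacna1a (0.959), a calcium channel, and Pde10a (0.958), a phosphodiesterase of striatal neurons. Malat1 was nearest to Pik3ip1 (0.941), Myo6 (0.940) and Myh14 (0.935), and Neat1 to Cdk19 (0.972), Stxbp3 (0.963) and Ttyh2 (0.961).

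Other long noncoding RNAs were called in both directions. Over all genes, 31.3% were called higher and 32.3% lower in neurons against glia. The shares were 7.1% and 8.07% in GABAergic against glutamatergic nuclei, and 21.2% and 18.7% in oligodendrocytes against astrocytes. Of 35 tested between neurons and glia, 11 were called higher and 16 lower, with a median log2 fold of -0.22 beside -0.00 over all genes. The largest were Dleu2 (-3.69), Dlx6os1 (2.16), an RNA of the Dlx locus of GABAergic neurons, A830018L16Rik (1.73) and Tunar (1.49). Between GABAergic and glutamatergic nuclei 9 of 35 were higher and 2 lower, with Dlx6os1 (4.44), Sox2ot (3.40), Dlx1as (2.90) and Rmst (-1.56) the largest, and a median of 0.06 beside 0.00. Between oligodendrocytes and astrocytes 9 of 32 were higher and 8 lower, led by Mir9-3hg (-3.17), a host of a neural microRNA, Mir99ahg (-2.31), C130071C03Rik (-1.57) and Pvt1 (1.40), with a median of 0.01 beside 0.08.

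Of 31 protein-coding genes of imprinted domains, 22 were called higher and 7 lower in neurons, with a median log2 fold of 0.87. Over all genes 31.3% were called higher and 32.3% lower, with a median of -0.00. The list was chosen with earlier results of these data known, so these counts are a description only. Usp29 (1.65) of the Peg3 domain, Grb10 (1.62), a growth factor receptor adaptor, and Rtl1 (1.51), a retrotransposon-derived gene of the Dlk1-Dio3 domain, were among the largest, and Mkrn3 (-3.57), a ubiquitin ligase gene of the Prader-Willi domain, was lower. Between GABAergic and glutamatergic nuclei 5 of 30 were higher and 2 lower (median 0.02), with Ddc (1.12), Asb4 (0.97), Kcnk9 (-0.81), a potassium channel, and Zdbf2 (0.33) named. Between oligodendrocytes and astrocytes 8 of 27 were higher and 3 lower (median 0.42), with Ddc (3.16), Nnat (-2.56), Plagl1 (2.42) and Inpp5f (1.89) the largest. Over all genes 7.1% were called higher and 8.07% lower in GABAergic nuclei (median 0.00). In oligodendrocytes 21.2% of all genes were called higher and 18.7% lower (median 0.08).

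A list of proteins of paraspeckles and nuclear speckles, the bodies of Neat1 and Malat1, gave 4 of 39 higher and 14 lower in neurons. The median was -0.09, and over all genes 31.3% were called higher and 32.3% lower. The list also held RNA-binding proteins not tied here to either body, Qk and Celf3 among them. Qk (-3.52), an RNA-binding protein of myelinating glia, Celf3 (1.40), Son (-1.34), a scaffold of speckles, and Srsf2 (-0.77), a splicing factor, were the largest. Between GABAergic and glutamatergic nuclei 2 of 39 were higher and 0 lower, Qk (0.22) and Matr3 (0.20), with a median of 0.06. Between oligodendrocytes and astrocytes 8 of 39 were higher and 3 lower (median 0.19), with Son (-1.32), Zfp638 (0.88), U2af1 (0.64) and Srsf1 (-0.50) the largest. The shares of all genes called higher and lower were 7.1% and 8.07% in GABAergic nuclei and 21.2% and 18.7% in oligodendrocytes. Between the sexes, Xist was the only gene of the 3 lists called in neurons and in oligodendrocytes, and Xist and its antisense Tsix were called in astrocytes. Of the neuron to glia folds, those of Dlx6os1 (1.00), Mir124a-1hg (0.72) and Srsf7 (0.52) were called larger in males, and edgeR called 0 of the 32 imprinted coding genes tested, of which 10 had an unadjusted p under 0.05. Begain (0.69) and Magel2 (1.07) had the lowest p among them.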

How the data were processed

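Per the labels, single nuclei were profiled with 10x Genomics 3' kits, and the submitters' processing notes name Cell Ranger 6.0.1, Seurat 5 and build mm10. The deposited files hold UMI counts per gene and barcode. The file headers of male 1 and male 2 name version 9.0.1, the header of female 1 version 7.0.0, and that of female 2 version 7.2.0. The members and gene lists were chosen with earlier results of these data known. Nuclei were kept and classed as described, those in more than 1 class were dropped, and no doublet caller was run. The counts of all nuclei of a class were added up in each library, and these sums, the replicates, were tested over the genes of all 4 lists with edgeR 4.0.16 (R 4.3.3, TMM, filterByExpr, quasi-likelihood test, 2-sided), Benjamini-Hochberg at 0.05, with DESeq2 1.42.0 as the alternative, and the fits were tested on simulated data. Shares are percentages of all UMIs of a class in a library, and single-library intervals (exact Poisson, 95%) cover counting error only. Named genes are the members, their 3 most alike genes with a mean of at least 10 CPM, up to 4 genes per list and comparison by size of the log2 fold among those called (otherwise up to 2 by p), and overlapping genes on the same strand holding at least 1% of a member's UMIs. Genes within 120 kb were added after the files were seen. Alternatives covered the tool, scaling, low-count filter, class threshold, stray markers, depth, gene models, weighting, replicate block and leaving out each library.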

Additional observations from a re-analysis of the deposited data

Results flagged for a closer look

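A test of the difference between the sexes itself picked out 3 members. The neuron to glia fold in males over that in females had a log2 value of -1.40 for Neat1, 0.54 for Meg3 and 0.48 for Snhg11 (edgeR's quasi-likelihood test). Depth, gene list and software version moved with sex, and their part was not tested.

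Genes that only some gene lists hold were not tested as genes of their own. Those overlapping a member on its strand entered only the alternative with gene models summed. All of them are part of the UMI totals by which the shares were divided. Around Snhg14, female 1 held 64265 UMIs of 9330162G02Rik, 17177 of Gm44560, 16962 of Gm44829, 8887 of A230103L15Rik, 8678 of Gm44562, 4386 of Gm44831, 4245 of Gm38393, 4071 of Gm44559 and 1910 of Gm44742. Gm38393 held 2535 UMIs in female 2. Between Rian and Mirg, Gm37899 held 6904 UMIs in female 1. These genes have no values in the male lists.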

How the results depend on the processing

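The direction of all 9 members between neurons and glia held under every alternative run. The count of genes called there was 5211 in nuclei of 2000 to 5000 UMIs, and DESeq2 called 1 member lower. Between males and females in neurons, genes called numbered 948 with DESeq2, 0 without stray markers, 10 in nuclei of 2000 to 5000 UMIs and 2 with the replicate block, and 0 to 11531 when 1 library was left out. Members higher there ran from 0 to 4 and lower from 0 to 4 when 1 library was left out, with 1 lower in DESeq2. In astrocytes, genes numbered 30 with DESeq2, 297 without a filter, 32 with the replicate block and 1 to 1501 with 1 library left out. Members higher were 1 without a filter (0 to 1 with 1 library left out), and members lower 2 without a filter, 1 at 2000 to 5000 UMIs and 0 to 5 with 1 library left out. In oligodendrocytes, genes numbered 206 with DESeq2, 351 without a filter, 5 without stray markers, 707 at 2000 to 5000 UMIs, 168 with the replicate block and 4 to 4739 with 1 library left out. Members higher were 1 at 2000 to 5000 UMIs (0 to 4), and lower 1 without a filter and 5 at 2000 to 5000 UMIs (0 to 4). For the difference of the neuron to glia fold, genes numbered 873 without a filter, 64 at a threshold of 3 UMIs, 464 without stray markers, 652 at 2000 to 5000 UMIs and 66 to 2234 with 1 library left out. Members higher were 4, 0, 6 and 7 in those settings (0 to 7), and lower 0 at 2000 to 5000 UMIs and with classes weighted equally. Between GABAergic and glutamatergic nuclei, genes numbered 1554 with DESeq2, 91 at 2000 to 5000 UMIs and 1380 to 2501 with 1 library left out, with 1 member higher without a filter and 0 lower at 2000 to 5000 UMIs. Between oligodendrocytes and astrocytes, members higher were 4 without stray markers and 2 at 2000 to 5000 UMIs, and lower 1 with DESeq2, RLE factors, no filter and a threshold of 3 UMIs. The causes were not tested.

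Small log2 folds changed sign. Males over females in neurons at 2000 to 5000 UMIs gave Neat1 1.06, Rian -0.35, Snhg14 -0.38 and Kcnq1ot1 0.74. A threshold of 3 UMIs gave Rian -0.016 and Snhg11 0.040. DESeq2 gave Snhg11 0.036 and Kcnq1ot1 0.0097, RLE factors 0.036 and 0.0097, and no filter 0.084 and 0.060. The replicate block gave Snhg11 0.074, and summed gene models gave Snhg14 -0.10. In astrocytes a threshold of 3 UMIs gave Rian 0.087, Snhg14 0.18 and Kcnq1ot1 0.063. In oligodendrocytes Snhg14 was 0.019 with DESeq2 and RLE factors, 0.016 with no filter and 0.20 at 3 UMIs, and Kcnq1ot1 was -0.15 at 2000 to 5000 UMIs. The difference of the neuron to glia fold at 2000 to 5000 UMIs was -0.46 for Malat1 and 0.79 for Kcnq1ot1. GABAergic over glutamatergic gave, at 2000 to 5000 UMIs, Malat1 -0.18, Rian 0.24 and Mirg 0.17. At 3 UMIs it gave Neat1 -0.13, Mirg 0.038 and Kcnq1ot1 -0.010, and without a filter Snhg14 0.011. Oligodendrocytes over astrocytes gave Kcnq1ot1 -0.058 without stray markers. With 1 library left out, males over females in neurons ranged from -0.21 to 0.15 for Meg3, -0.065 to 0.24 for Rian, -0.33 to 0.58 for Snhg11 and -0.058 to 0.12 for Kcnq1ot1. In astrocytes Kcnq1ot1 ranged from -0.24 to 0.0037, and in oligodendrocytes Snhg11 from -0.72 to 0.26 and Snhg14 from -0.072 to 0.12. GABAergic over glutamatergic ranged from -0.12 to 0.42 for Neat1, -0.093 to 0.0037 for Mirg and -0.0017 to 0.053 for Kcnq1ot1, and oligodendrocytes over astrocytes from -0.042 to 0.11 for Kcnq1ot1. Neat1 could not be tested between the neuron classes at 2000 to 5000 UMIs.

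The labels give replicate numbers but no pairing. Same-numbered males and females had deviations with r = 0.202 in neurons, 0.125 in astrocytes and 0.0253 in oligodendrocytes over genes, and with only 2 numbers the samples share only a number. The replicate block called 0 members. A fit that leaves out 1 library assumes that the lone library of that sex varies like the others, and with 2 libraries a sex, their number limits the sex comparisons. In the sex comparisons with a female left out, the spread came from the 2 male libraries, which lay close together. The counts called there are hence not a result about the members.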
